A study of Mus musculus with 8 samples.

Results

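The chemokine system of dystrophic muscle was measured as the genes whose symbols name a chemokine or a chemokine receptor (Ccl, Cxcl, Xcl, Ccr, Cxcr, Xcr or Ackr followed by a number, and *Cx3cl1* and *Cx3cr1*). Of 55401 genes in the deposited table, 64 had such a symbol, and 62 were kept after 2 pseudogenes of *Ccl19* were left out. They are 39 ligands and 23 receptors, and 61 are protein-coding in GENCODE M21, which classes *Cxcl11* as a polymorphic pseudogene. Bulk RNA-seq was made from whole tibialis anterior (TA) muscles of male mice at 6 mo of age, with 4 WT and 4 *mdx5cv* libraries. WT mice were of the C57/Bl6 strain, and *mdx5cv* mice carry a mutation in *Dmd*, the dystrophin gene, on the same background. The mutation is in every cell of the mouse from birth, and 1 age was sampled. In a whole muscle, fewer cells of a type and less RNA per cell cannot be told apart. The labels number the libraries and do not state that each is from a separate mouse, so p-values measure the spread between these 8 libraries, which may in part be technical.

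Chemokines are small secreted proteins that guide leukocytes along gradients, and their receptors are G protein-coupled receptors on the cells that follow them. Inflammatory chemokines are induced at sites of injury and bring in monocytes, neutrophils and T cells, whereas homeostatic chemokines such as CXCL12 are made without injury. Atypical receptors (ACKR) bind chemokines without classical G protein signaling and clear them from tissue. In muscle that lacks dystrophin, fibers degenerate and regenerate repeatedly and monocytes and macrophages enter the tissue.

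The families are named for the spacing of the first cysteines of the ligand, and a short coding window shows this spacing. The family of each ligand was taken from its symbol, which gives 24 CC, 13 CXC, 1 CX3C and 1 C ligand. Only the cysteine pattern of that family, a single cysteine for the C ligand, was then looked for in the longest annotated coding sequence (GENCODE M21, GRCm38). All 39 ligands held a match, but these numbers restate the names and do not test the grouping. The windows shown are 30 bases of coding exon, 5′ to 3′ on the coding strand, from ligands of each family that the results turn on and from *Cxcl12* as a homeostatic CXC ligand, with cysteine codons in capitals.
Ccl2: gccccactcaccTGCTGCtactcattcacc
Ccl6: acttcttcagacTGCTGCttctcttatgcc
Cxcl10: acggtccgcTGCaacTGCatccatatcgat
Cxcl12: agctaccgaTGCcccTGCcggttcttcgag
Cx3cl1: acgaaaTGCgaaatcatgTGCgacaagatg
Xcl1: gaagagagtagcTGTgtgaacttacaaacc
The cysteine codons of *Ccl2* (chr11:82036494-82036523, plus strand) and *Ccl6* (chr11:83589374-83589403, minus strand) are adjacent. In *Cxcl10* (chr5:92348169-92348198, minus strand) and *Cxcl12* (chr6:117171499-117171528, plus strand) 1 codon lies between them, and in *Cx3cl1* (chr8:94778045-94778074, plus strand) 3 codons do. The window of *Xcl1* (chr1:164932960-164932989, minus strand) holds a single cysteine codon.

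The authors deposited normalized counts, that is, the reads of each gene divided by a size factor of the library. Recovered reads per library ranged from 13175524 to 14921057. Differences are given as the log2 fold change of *mdx5cv* over WT (log2FC) with its standard error (SE). *Dmd* had normalized counts of 6914, 8155, 6579 and 6169 in the WT muscles and 4399.6, 4056, 3941 and 3461 in the *mdx5cv* muscles, a log2FC of -0.81 (SE 0.12, limma adjusted p = 0.000177). Every *mdx5cv* value of *Dmd* was below every WT value, although the gene stayed under the minimum fold. The 62 genes together had a summed normalized count of 1553 ± 57.9 in WT against 2845 ± 643 in *mdx5cv* (SD, n = 4). *Cxcl12* and *Cxcl14* held 65.4% ± 3.78 of that sum in WT against 34.0% ± 4.98 in *mdx5cv* (SD, n = 4). Their own summed count ranged from 918 to 1121 in WT and from 854 to 1076 in *mdx5cv*, so these ranges overlapped while the rest of the chemokine system was larger in each *mdx5cv* library than in any WT library.

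**Figure D1:**
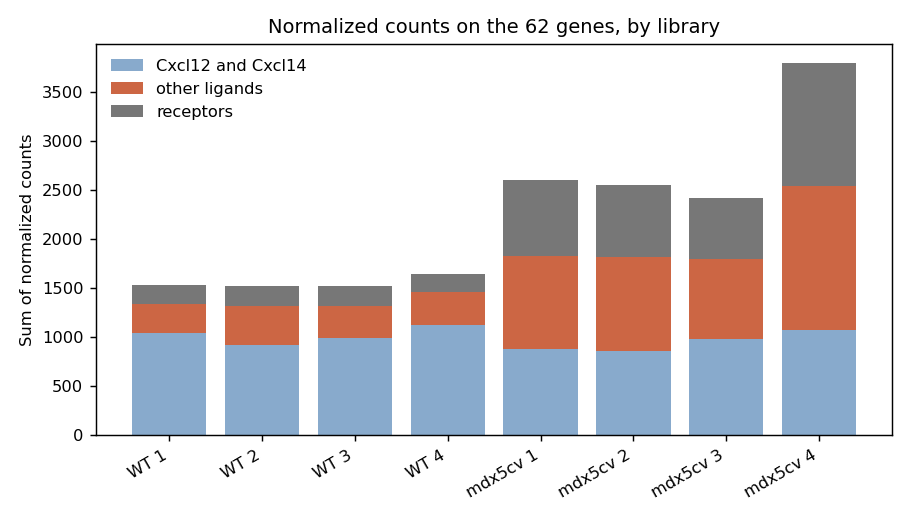
Summed normalized counts (vertical axis) of Cxcl12 and Cxcl14, of the other ligands and of the receptors, stacked for each of the 8 libraries. The other ligands sum to between 292 and 401 in WT and between 819 and 1470 in mdx5cv, and the receptors to between 179 and 205 in WT and between 619 and 1255 in mdx5cv.

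Differences between groups were tested with limma on log2(normalized count + 1) wherever the mean over the 8 libraries was 10 or more, and a gene was called when its adjusted p was under 0.05 and its log2FC was 1 or more in either direction. Of the 62 genes, 21 passed this minimum (15 ligands and 6 receptors), 32 had reads but were under it, and 9 had no read. Of the 21, 14 were higher in *mdx5cv* (9 ligands and 5 receptors), where 10.3% of all 13677 genes tested were higher. None of the 21 was lower, by limma, by edgeR or at an unadjusted p under 0.05, where 3.27% of all genes tested were lower in limma. The WT mean of 8 of the 21 was under 10. These 8 passed the minimum through *mdx5cv* alone and so had to differ, and all 8 were called. Among the 13 whose WT mean was at least 10, 6 were called higher, against 7.13% of all genes with such a WT mean. The median log2 fold change of these 13 was 0.44. It was 0.00 over all genes tested, at any WT mean, and was not computed for all genes with a WT mean of at least 10. Over all genes with a read, 12.3% had every *mdx5cv* value above every WT value, and 23 of the 62 genes (14 ligands and 9 receptors) did.

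**Figure D2:**
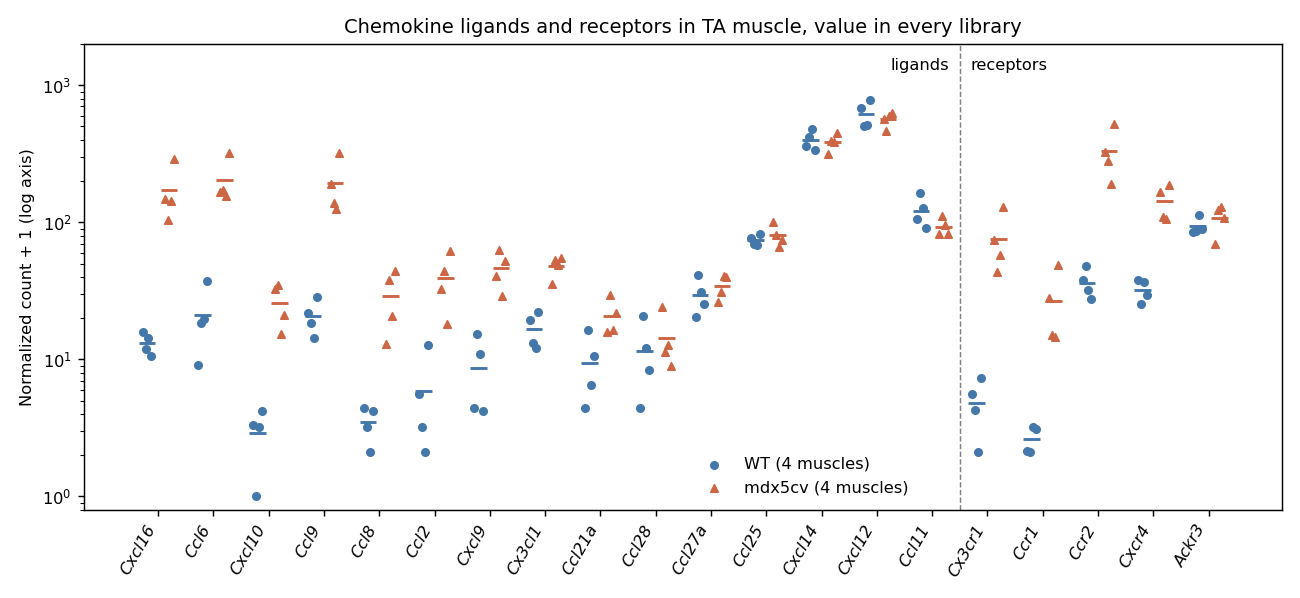
Normalized count + 1 on a log axis for 20 of the 21 tested genes in every library, WT as circles and mdx5cv as triangles, with a horizontal line at the mean of each group of 4. Among the called genes only Ccl21a has overlapping groups, and the 7 genes that were not called overlap.

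The CCR2 axis carries inflammatory monocytes into injured tissue. *Ccl2* (MCP-1, chr11:82035571-82037453), the main ligand of CCR2, had normalized counts of 4.58, 2.19, 1.11 and 11.7 in the WT muscles and 31.5, 43.4, 17.1 and 60.7 in the *mdx5cv* muscles. Every *mdx5cv* library was above every WT library, with a log2FC of 2.93 (SE 0.53, limma adjusted p = 0.000782). *Ccr2*, the receptor of inflammatory monocytes (chr9:124101950-124113557), had normalized counts of 36.7, 47.2, 31.0 and 26.5 in the WT muscles and 324, 280.2, 190.0 and 524 in the *mdx5cv* muscles. Its groups lay far apart, with a log2FC of 3.12 (SE 0.26, limma adjusted p = 3.18e-06). Per kilobase of exon, the mean WT levels of *Ccr2* (5.23 ± 1.32) and *Ccl2* (4.29 ± 4.17, SD, n = 4) differed by less than their SD. *Ccl7* and *Ccl12*, the other ligands of CCR2 in mice, were under the minimum. *Ccl7* had 0, 0, 1 and 2 reads in the WT muscles and 12, 23, 13 and 32 in the *mdx5cv* muscles, a ratio of 21.5 (95% exact counting interval 7.10 to 107, limma adjusted p = 6.07e-05 with no filter). *Ccl12* had 1, 2, 2 and 0 reads in the WT muscles and 10, 8, 3 and 7 in the *mdx5cv* muscles (limma adjusted p = 0.0305 with no filter). For *Ccl12* the adjusted p was 0.0275 in edgeR with no filter and 0.0596 in DESeq2, so it was not called in DESeq2. All 3 ligands and the receptor of this axis were therefore higher in *mdx5cv* without overlap of the groups, as were 12.3% of all genes with a read. For *Ccl12* this rests on few reads.

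CCR1 is a receptor of monocytes, macrophages and effector T cells, and *Ccl6* and *Ccl9* are mouse CC ligands made by myeloid cells that act on CCR1. *Ccl6* had normalized counts of 8.02, 17.6, 18.8 and 36.0 in the WT muscles and 167, 171, 155 and 320.4 in the *mdx5cv* muscles. *Ccl9* had 20.6, 17.6, 13.3 and 27.5 in the WT muscles and 189, 137, 124 and 321 in the *mdx5cv* muscles. Both were higher in every *mdx5cv* library and highest in *mdx5cv* replicate 4, with a log2FC of 3.38 (SE 0.35, limma adjusted p = 1.32e-05) for *Ccl6* and a log2FC of 3.16 (SE 0.29, limma adjusted p = 5.19e-06) for *Ccl9*. *Ccr1* had normalized counts of 1.15, 1.10, 2.21 and 2.12 in the WT muscles and 26.9, 14.2, 13.5 and 47.9 in the *mdx5cv* muscles, where 1.10 to 2.21 stands for 1 or 2 reads in a WT library. It was close to the detection limit in WT, and its log2FC was 3.17 (SE 0.46, limma adjusted p = 0.000169). Without *mdx5cv* replicate 4, *Ccr1* was under the minimum and was not tested. *Ccl3*, *Ccl4* and *Ccl5*, inflammatory CC ligands made by activated macrophages and T cells, were under the minimum. *Ccl3* (MIP-1α) had no read in any WT muscle and 7, 6, 4 and 22 reads in the *mdx5cv* muscles (limma adjusted p = 0.000141 with no filter). This is 10.1-fold higher when WT is set at 3 reads. *Ccl5* (RANTES) had no read in any WT muscle and 5, 9, 5 and 7 reads in the *mdx5cv* muscles (limma adjusted p = 0.000107 with no filter), 7.03-fold higher when WT is set at 3 reads. These folds set the mean normalized count of *mdx5cv* against that of 3 reads in the whole WT group, and no WT library had a read of either gene. They leave out counting error in *mdx5cv*, so they are not lower limits. *Ccl4* had 0, 0, 0 and 1 reads in the WT muscles and 1, 3, 2 and 7 in the *mdx5cv* muscles, a ratio of 10.5 (95% exact counting interval 1.58 to 446, limma adjusted p = 0.0237 with no filter), and its groups overlapped.

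CX3CL1 (fractalkine) is a chemokine tethered to the membrane, and its receptor CX3CR1 marks monocytes and macrophages. *Cx3cl1* had normalized counts of 18.3, 12.1, 11.1 and 21.2 in the WT muscles and 34.3, 51.9, 47.7 and 53.5 in the *mdx5cv* muscles. The groups did not overlap, with a log2FC of 1.55 (SE 0.26, limma adjusted p = 0.000446). *Cx3cr1* had 4.58, 3.29, 1.11 and 6.36 in the WT muscles and 73.2, 42.5, 56.7 and 128 in the *mdx5cv* muscles. Its groups did not overlap either, and its log2FC was 3.99 (SE 0.42, limma adjusted p = 1.3e-05). Whether the receptor changed more than the ligand was not tested. CXCL16 is the other chemokine with a membrane anchor, and its receptor CXCR6 is found on effector T cells. *Cxcl16* had normalized counts of 14.9, 10.97, 13.3 and 9.53 in the WT muscles and 147, 103, 142 and 288 in the *mdx5cv* muscles. Every *mdx5cv* value was above every WT value, with a log2FC of 3.61 (SE 0.28, limma adjusted p = 1.48e-06). Its exons share 552 bases with *Zmynd15* on the opposite strand, and the strand setting of the counting is not given in the sources used here, so reads of the pair may be mixed. Exons of *Cxcl10*, *Cx3cr1* and *Ccl25* likewise share 133, 78 and 204 bases with genes on the opposite strand. *Cxcr6* had 0, 0, 0 and 1 reads in the WT muscles and 7, 5, 2 and 5 in the *mdx5cv* muscles (limma adjusted p = 0.00319 with no filter), so the receptor was found at a low level in *mdx5cv* and as 1 read in WT.

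CXCL9, CXCL10 and CXCL11 are induced by interferons and attract T cells and NK cells through CXCR3. *Cxcl9* had normalized counts of 3.44, 14.3, 9.95 and 3.18 in the WT muscles and 39.8, 61.3, 27.9 and 51.1 in the *mdx5cv* muscles, a log2FC of 2.57 (SE 0.42, limma adjusted p = 0.000411). *Cxcl10* had 2.29, 0, 2.21 and 3.18 in the WT muscles and 31.5, 34.0, 14.4 and 19.98 in the *mdx5cv* muscles, a log2FC of 3.26 (SE 0.51, limma adjusted p = 0.000264). Both were higher in each *mdx5cv* library than in any WT library. *Cxcl11*, their neighbor on chromosome 5, went the other way, with 1, 3, 6 and 2 reads in the WT muscles and none in any *mdx5cv* muscle. It was the 1 gene of the 62 whose *mdx5cv* values were all below its WT values, 4.95-fold lower when *mdx5cv* is set at 3 reads (limma adjusted p = 0.00276 with no filter). This rests on 12 WT reads, and 1582 of the 3794 exon bases of *Cxcl11* overlap a pseudogene, *Gm2673*, on the opposite strand. *Cxcl11* itself is annotated as a polymorphic pseudogene, a class whose members code for a protein in some strains and not in others, so its reads need not stand for a working ligand. *Cxcr3*, the receptor of CXCL9 and CXCL10, had 1, 0, 0 and 0 reads in the WT muscles and 9, 8, 8 and 12 in the *mdx5cv* muscles, a ratio of 29.9 (95% exact counting interval 5.04 to 1211, limma adjusted p = 0.000126 with no filter). The interval is wide because WT had 1 read.

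The *Cxcl10* promoter is known for an interferon-stimulated response element and NF-κB sites, and it was therefore examined in RefSeq promoter windows (250 bases before to 50 after the gene start, GRCm38.p6), which were given for 47 of the 62 genes. The motifs were the core of the interferon-stimulated response element (GAAA, any 2 bases, then GAAA) and the NF-κB consensus site, searched on both strands, and the TATA box (TATAAA), searched on the gene's strand. Overlapping matches were kept. The windows shown are 30 bases on the gene's strand, with the match in capitals, first the response element and then both NF-κB sites of *Cxcl10*, then the TATA boxes of *Ccl8* and *Cxcr4*, both called higher.
Cxcl10 response element: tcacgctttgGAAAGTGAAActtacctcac
Cxcl10 distal NF-κB site: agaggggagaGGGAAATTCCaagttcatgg
Cxcl10 proximal NF-κB site: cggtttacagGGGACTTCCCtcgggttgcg
Ccl8 TATA box: ttccctgctcccTATAAAaggcagattaga
Cxcr4 TATA box: ggagcgtgttttTATAAAagtccggttcgg
The *Cxcl10* windows lie at chr5:92349083-92349112, minus strand, chr5:92349029-92349058, minus strand, and chr5:92348973-92349002, minus strand, and the matches begin 213, 159 and 103 bases before the gene start. The *Ccl8* window lies at chr11:82115141-82115170, plus strand, and the *Cxcr4* window at chr1:128592312-128592341, minus strand. The response element core was found in 3 of the 47 genes (*Ccl19*, *Cxcl10* and *Cxcl14*), against 3.44% of all 32851 windows. The NF-κB site was found in 10 of the 47, against 4.51% of all windows. The letters TATAAA were found at any place in the window in 12 of the 47, against 8.32%. Genes with several windows have more chances of a match than 1 window has. Of the 11 genes called higher that had a window, 1 held the response element core, 2 an NF-κB site and 5 the letters TATAAA. These letters began 32 bases before the gene start in *Ccl8* and 30 in *Cxcr4*, but 195 in *Cxcl9*, 92 in *Ccl9* and 6 in *Cx3cl1*. The position was not part of the search, so the number 5 is of letter matches and not of placed TATA boxes. *Cxcl10*, *Cxcl14* and *Ccl19* share the response element core, and in these muscles *Cxcl10* was higher in *mdx5cv*, *Cxcl14* was not called and *Ccl19* had no read.

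CXCL12 holds stem cells and leukocytes in place through CXCR4, and ACKR3 removes it. *Cxcl12* had normalized counts of 686, 501, 509 and 785 in the WT muscles and 567, 465, 594 and 626 in the *mdx5cv* muscles. The groups overlapped, with a log2FC of -0.12 (SE 0.15, limma adjusted p = 0.557), and the value was 0.24 when libraries were scaled to equal totals, a scaling that moved the median of all genes tested to 0.36. *Cxcr4* (chr1:128588199-128592293) had 36.7, 24.1, 35.4 and 28.6 in the WT muscles and 164, 108, 104 and 187 in the *mdx5cv* muscles. It was higher in every *mdx5cv* library, with a log2FC of 2.11 (SE 0.22, limma adjusted p = 1.15e-05). *Ackr3* had 83.7, 85.6, 112 and 87.9 in the WT muscles and 68.6, 123, 129 and 106 in the *mdx5cv* muscles, and with a log2FC of 0.18 (SE 0.19, limma adjusted p = 0.497) it was not called. In this axis only the signaling receptor therefore passed the test.

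**Figure D3:**
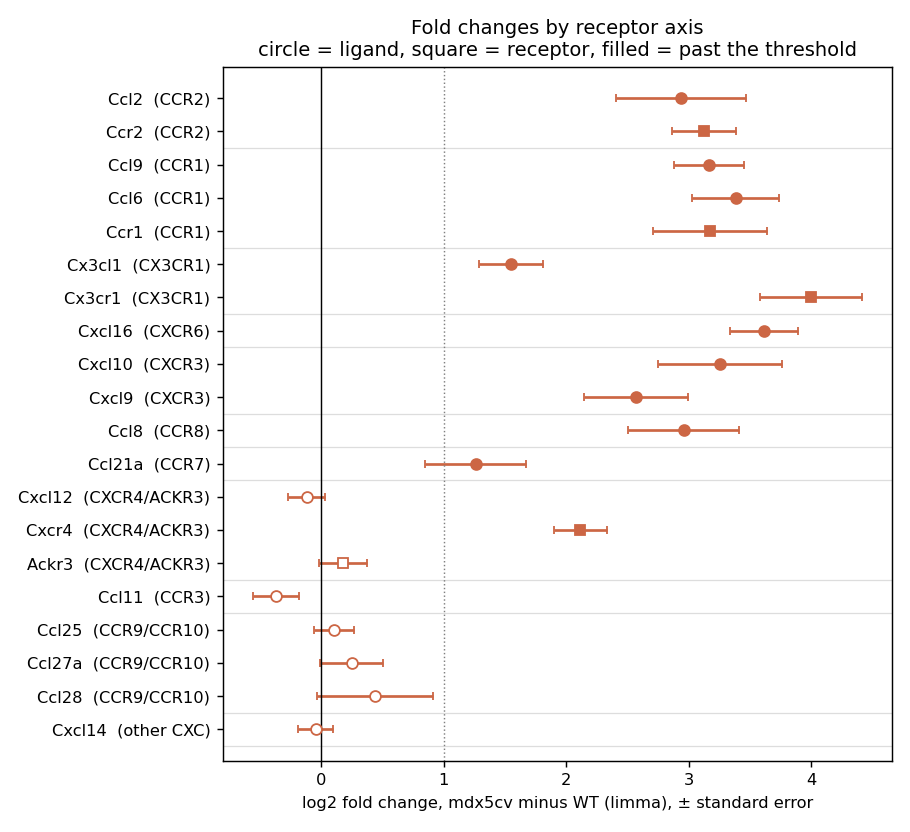
Log2 fold change (mdx5cv minus WT, limma, horizontal axis) with its standard error for 20 of the 21 tested genes, grouped by receptor axis. Filled symbols passed the threshold, and the dotted line marks a log2 fold change of 1. The receptor Cxcr4 lies at 2.11 while its ligand Cxcl12 lies at -0.12 (0.24 under equal totals).

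In mice CCL8 acts on CCR8 of T cells. *Ccl8* had normalized counts of 3.44, 2.19, 1.11 and 3.18 in the WT muscles and 12.0, 36.8, 19.8 and 43.2 in the *mdx5cv* muscles. The WT values stand for 1 to 3 reads, and every *mdx5cv* value was above them, with a log2FC of 2.96 (SE 0.45, limma adjusted p = 0.000243). *Ccr8* and its other ligand *Ccl1* had no read in any of the 8 libraries. CCL17 and CCL22 attract T cells through CCR4. *Ccl22* had no read in any WT muscle and 10, 13, 6 and 18 reads in the *mdx5cv* muscles (limma adjusted p = 1.96e-05 with no filter), 12.5-fold higher when WT is set at 3 reads. *Ccl17* had no read in any WT muscle and 0, 3, 4 and 5 reads in the *mdx5cv* muscles (limma adjusted p = 0.0173 with no filter). This is 3.16-fold higher when WT is set at 3 reads, and 1 *mdx5cv* library without a read made its groups overlap. *Ccr4* had no read in any WT muscle and 1, 0, 1 and 0 reads in the *mdx5cv* muscles, which is too few for a comparison.

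CCR7 leads dendritic cells and naive T cells to lymph nodes along CCL19 and CCL21. *Ccl21a* had normalized counts of 3.44, 15.4, 5.53 and 9.53 in the WT muscles and 14.8, 28.3, 15.3 and 20.8 in the *mdx5cv* muscles. WT replicate 2 lay within the *mdx5cv* values, and with a log2FC of 1.261 (SE 0.41, limma adjusted p = 0.0263) it was the 1 called gene whose groups overlapped. Its call was lost without WT replicate 1 (log2 fold change 0.95, limma adjusted p = 0.0727), WT replicate 3 (adjusted p = 0.0664), *mdx5cv* replicate 2 (adjusted p = 0.0797) or *mdx5cv* replicate 4 (adjusted p = 0.0593), and with a pseudocount of 10 (log2 fold change 0.71). *Ccl21a*, *Ccl21b* and *Ccl21d* are near-identical copies that can share reads, so the value of *Ccl21a* alone is uncertain. The copies *Ccl21b* and *Ccl21d*, and *Ccl19*, had no read. *Ccr7* had 0, 1, 0 and 1 reads in the WT muscles and 6, 7, 11 and 7 in the *mdx5cv* muscles, a ratio of 12.5 (95% exact counting interval 3.18 to 108, limma adjusted p = 0.000978 with no filter). XCL1 comes from NK and T cells and attracts dendritic cells that bear XCR1 and present antigen to cytotoxic T cells. *Xcr1* had no read in any WT muscle and 4, 6, 3 and 11 reads in the *mdx5cv* muscles (limma adjusted p = 0.000304 with no filter), 6.31-fold higher when WT is set at 3 reads. *Xcl1*, whose single cysteine codon is shown above, had no read in any WT muscle and 1, 2, 3 and 2 reads in the *mdx5cv* muscles (limma adjusted p = 0.00721 with no filter). This is 2.15-fold higher when WT is set at 3 reads. Neither *Xcl1* nor *Xcr1* had a read in WT.

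The 3 ligands with the highest WT level per kilobase of exon were *Cxcl14*, *Ccl11* and *Cxcl12*, and none was called. *Cxcl14*, a homeostatic CXC ligand of epithelia and connective tissue, had normalized counts of 356, 417, 479 and 336 in the WT muscles and 313, 389, 383 and 449.9 in the *mdx5cv* muscles. With a log2FC of -0.05 (SE 0.14, limma adjusted p = 0.814) it was not called, and its sign turned under equal totals (0.31). *Ccl11* (eotaxin), which attracts eosinophils through CCR3, had 104, 162, 126 and 90.04 in the WT muscles and 81.5, 109, 94.6 and 80.7 in the *mdx5cv* muscles. Its groups overlapped, with a log2FC of -0.37 (SE 0.18, limma adjusted p = 0.125). The other eotaxins were scarce, since *Ccl26* had no read and *Ccl24* had 1, 8, 4 and 4 reads in the WT muscles and 2, 3, 4 and 3 in the *mdx5cv* muscles. *Ccr3* had 0, 0, 1 and 0 reads in the WT muscles and 3, 0, 2 and 0 in the *mdx5cv* muscles. *Ccl25*, the ligand of the gut-homing receptor CCR9, had normalized counts of 75.6, 68.0, 67.4 and 81.6 in the WT muscles and 99.1, 80.2, 64.8 and 73.5 in the *mdx5cv* muscles, with a log2FC of 0.10 (SE 0.16, limma adjusted p = 0.638). *Ccl27a* and *Ccl28* signal through CCR10, a receptor of skin and mucosa. *Ccl27a* had 19.5, 40.6, 29.9 and 24.4 in the WT muscles and 25.0, 30.2, 39.6 and 39.2 in the *mdx5cv* muscles, with a log2FC of 0.25 (SE 0.26, limma adjusted p = 0.468). *Ccl28* had 3.44, 19.7, 11.1 and 7.42 in the WT muscles and 23.2, 10.4, 11.7 and 7.99 in the *mdx5cv* muscles, with a log2FC of 0.44 (SE 0.48, limma adjusted p = 0.491). None of these 3 was called, their groups overlapped, and *Ccl27a* shares near-identical sequence with *Ccl27b*, which had 1 read in all. Their receptors were hardly found, with 1 WT and 4 *mdx5cv* reads of *Ccr9* and with 0, 1, 1 and 0 reads in the WT muscles and 0, 0, 1 and 2 in the *mdx5cv* muscles of *Ccr10*.

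The ligands of the neutrophil receptor CXCR2 were nearly absent from both groups. *Cxcl1* had 4, 2, 0 and 0 reads in the WT muscles and 3, 5, 0 and 4 in the *mdx5cv* muscles, *Cxcl2* had 1 WT and 4 *mdx5cv* reads, *Cxcl5* had 1 and 5, and *Cxcl3* had none. *Cxcl15*, a neighbor that was not assigned to this axis, had no read either. *Cxcr2* had 0, 0, 1 and 0 reads in the WT muscles and 0, 1, 1 and 0 in the *mdx5cv* muscles, and *Cxcr1* had no read in any WT muscle and 2, 1, 0 and 2 reads in the *mdx5cv* muscles. A difference between the groups in this axis was therefore not detectable at this depth. The same holds for CXCL13 and CXCR5, which place B cells in follicles, with 2, 1, 1 and 1 reads in the WT muscles and 0, 0, 2 and 1 in the *mdx5cv* muscles for *Cxcl13* and 1, 1, 1 and 3 reads in the WT muscles and 1, 4, 4 and 0 in the *mdx5cv* muscles for *Cxcr5*. *Ccl20* and *Ccr6* each had 1 read, in *mdx5cv*, and *Ccr1l1*, a near-identical neighbor of *Ccr1*, had no read in any WT muscle and 1, 0, 2 and 1 reads in the *mdx5cv* muscles. Of the atypical receptors under the minimum, *Ackr1*, which binds chemokines on venules and erythrocytes, had 14, 11, 10 and 9 reads in the WT muscles and 0, 18, 10 and 6 in the *mdx5cv* muscles, and its exons share 361 bases with *Cadm3* on the same strand. *Ackr2*, a scavenger of inflammatory CC chemokines, had 4, 12, 4 and 6 reads in the WT muscles and 6, 11, 8 and 9 in the *mdx5cv* muscles. *Ackr4*, which takes up the ligands of CCR7 and CCR9, had 4, 7, 0 and 1 reads in the WT muscles and 1, 3, 2 and 3 in the *mdx5cv* muscles. The groups overlapped for all 3. For the 9 genes with no read, which also include *Cxcl17*, 3 reads over a group would average 0.826 normalized counts in WT and 0.667 in *mdx5cv*, which limits what could have been missed by counting error alone.

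With the minimum dropped, limma called 12 of the 32 genes under it higher and 1 lower, and edgeR on recovered reads 10 higher and 1 lower. Of all 28501 genes with a read, limma with no filter called 7.73% higher and 2.25% lower, and edgeR 7.66% and 2.34%. *Ccl4* and *Xcl1* were the genes called by limma alone. Of the 32 genes, 10 had *mdx5cv* values that were all above the WT values, where 12.3% of all genes with a read, at any level, did. In 5 genes every *mdx5cv* library and no WT library had a read (*Ccl22*, *Ccl3*, *Ccl5*, *Xcr1* and *Xcl1*). The share of all genes with this pattern was not computed, so the number 5 has no background. The *mdx5cv* libraries had reads of more genes in general, 21316 to 22316 against 20035 to 20546 in WT.

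**Figure D4:**
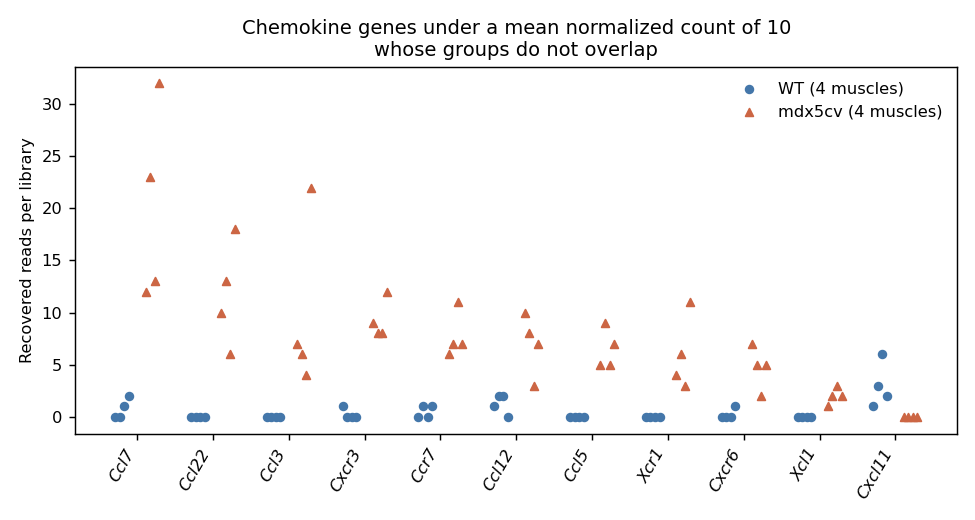
Recovered reads per library (vertical axis) of the 11 genes under the minimum whose groups do not overlap, WT as circles and mdx5cv as triangles. Ccl7 reaches 32 reads in mdx5cv and at most 2 in WT, and Cxcl11 is the 1 of them with reads in WT and none in mdx5cv.

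Many chemokine genes lie in clusters, so neighbors were compared. In the MCP cluster on chromosome 11 (chr11:82035571-82305690), read from *Ccl2* to *Ccl1*, the log2 fold changes with no filter were 2.93 for *Ccl2*, 3.45 for *Ccl7*, -0.37 for *Ccl11*, 1.65 for *Ccl12* and 2.96 for *Ccl8*, and *Ccl1* had no read. *Ccl11* was thus not called between neighbors that were higher. In the cluster at chr11:83525778-83664683 all of *Ccl5*, *Ccl9*, *Ccl6*, *Ccl3* and *Ccl4* had values between 1.51 and 3.38. In the *Cxcl9*, *Cxcl10* and *Cxcl11* cluster (chr5:92321347-92365485) the values were 2.57, 3.26 and -1.94. Of the receptor genes that lie together on chromosome 9, *Cxcr6*, *Xcr1*, *Ccr1* and *Ccr2* had groups that did not overlap and were higher in *mdx5cv*, whereas *Ccr9*, *Ccr1l1* and *Ccr3* had at most 5 reads in a group. In the cluster of CXCR2 ligands (chr5:90759360-90905938), none of the genes chosen by symbol was above the minimum. *Pf4*, a platelet chemokine whose symbol the rule does not take, lies within these coordinates. It was above the minimum and was called higher in *mdx5cv* (log2FC 1.92). On chromosome 8 (chr8:94745590-94812036) *Cx3cl1* lies between *Ccl22* and *Ccl17*, all 3 with more reads in *mdx5cv*.

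**Figure D5:**
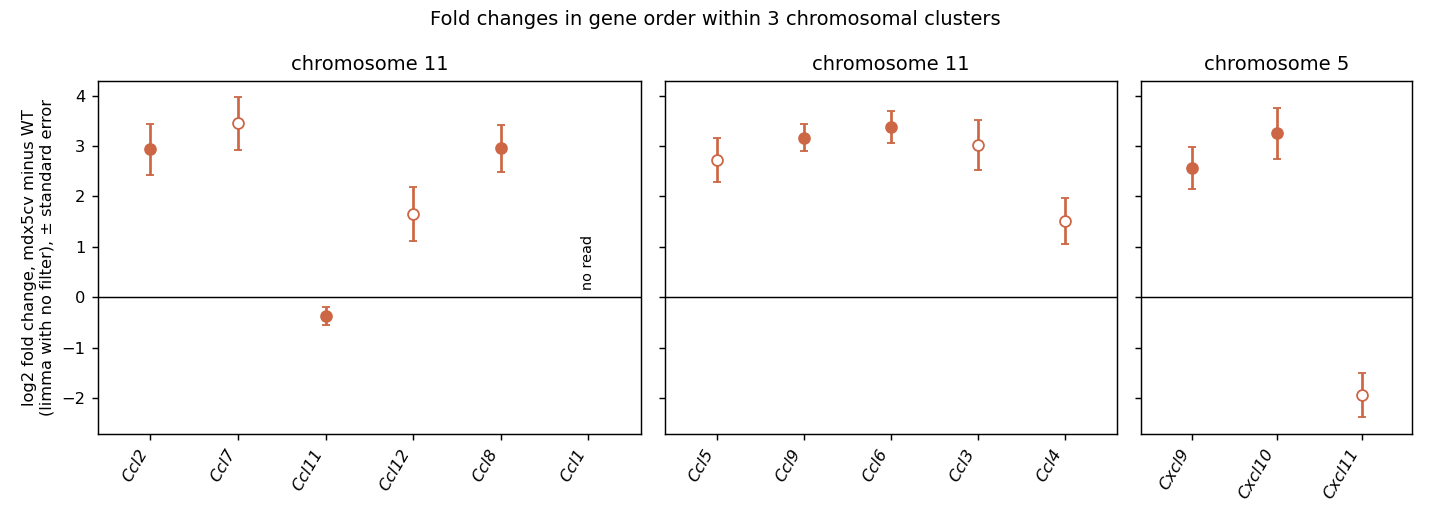
Log2 fold change (mdx5cv minus WT, limma with no filter, vertical axis) with its standard error for the genes of 3 clusters in their order along the chromosome. Filled points passed the minimum of 10 and open points did not, and Ccl11 (-0.37) and Cxcl11 (-1.94) lie below 0 beside neighbors above 0.

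Levels can be compared between genes only per length. Per kilobase of exon, the ligand *Cxcl14* had the highest mean normalized count in both groups, 217 ± 35.3 in WT against 210.0 ± 30.6 in *mdx5cv* (SD, n = 4). In WT it was followed by *Ccl11* (112 ± 29.1) and *Cxcl12* (75.9 ± 17.0) per kilobase. In *mdx5cv* it was followed by *Ccl6* (113 ± 43.7), *Ccl11* (84.6 ± 12.5), *Cxcr4* (78.0 ± 22.7) and *Cxcl12* (68.9 ± 8.54) per kilobase. Each of these 4 differed from the next by less than the larger SD, while *Cxcl14* stood above *Ccl6* by more than both SDs. *Ccl6* moved from the seventh to the second place and *Ackr3* from the fourth to the eleventh.

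The libraries of a group were not alike. Of the 14 called genes, 11 had their highest value in *mdx5cv* replicate 4 and 3 in *mdx5cv* replicate 2, and 9 had their lowest *mdx5cv* value in *mdx5cv* replicate 3. Among markers, the 8 macrophage and monocyte markers summed to normalized counts from 547 to 844 in WT and from 3581 to 8577 in *mdx5cv*, with the highest sum in *mdx5cv* replicate 4 and the lowest *mdx5cv* sum in replicate 3. Of the 7 tested, 6 were higher in *mdx5cv* and *Cd163*, a scavenger receptor of resident macrophages, was lower (log2 fold change -1.49). Over all genes tested, 10.3% were higher and 3.27% lower. A WT mean under 10 was found for 1 of the 7, which passed the minimum through *mdx5cv* alone and so had to differ, and it was called higher. Of the other 6, 5 were higher, where 7.13% of all genes with a WT mean of at least 10 were. *Adgre1*, encoding F4/80, had a mean normalized count of 40.5 ± 21.7 in WT against 358 ± 166 in *mdx5cv* (SD, n = 4), and *Cd68* of 22.7 ± 13.4 in WT against 339 ± 164 in *mdx5cv* (SD, n = 4). The part of these markers in the changes of the chemokine genes was not tested.

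Most markers of other leukocytes were low. The 6 T cell markers summed from 2.29 to 5.48 in WT and from 20.4 to 50.3 in *mdx5cv*, with none tested, *Cd3e* at 0 in every WT library and *Cd3d* at a mean of 0.274 ± 0.548 in WT against 1.27 ± 1.56 in *mdx5cv* (SD, n = 4). The 4 NK cell markers summed from 0 to 1.11 in WT and from 2.70 to 12.8 in *mdx5cv*, with *Ncr1* and *Klrb1c* at 0 in every WT library. Of the 5 neutrophil markers, which summed from 4.58 to 14.3 in WT and from 27.9 to 98.3 in *mdx5cv*, *Csf3r* alone was tested, through its *mdx5cv* values, and was higher, while *Ly6g* had no read in *mdx5cv*, *S100a8* had a mean of 1.39 ± 1.38 in WT against 2.56 ± 2.34 in *mdx5cv* (SD, n = 4) and *Retnlg* had no read. The 5 dendritic cell markers summed from 109 to 155 in WT and from 138 to 196 in *mdx5cv*. *Zbtb46* and *Cd209a* of them were tested and neither was called. Most of the sum was *Zbtb46*, with a mean of 114 in WT against 117 in *mdx5cv*. *Flt3* was at 1.93 ± 1.06 in WT against 13.5 ± 9.89 in *mdx5cv* (SD, n = 4) and *Clec9a* at 0.838 ± 1.09 in WT against 8.97 ± 2.604 in *mdx5cv* (SD, n = 4). Neither *Flt3* nor *Clec9a* had overlapping groups, and 12.3% of all genes with a read were likewise higher in *mdx5cv* without overlap. The 4 B cell markers, among them *Ms4a1*, summed from 4.42 to 17.6 in WT and from 1.80 to 12.8 in *mdx5cv*, with none tested. The 4 eosinophil markers summed from 0 to 2.21 in WT and from 5.40 to 9.26 in *mdx5cv*, with none tested, *Siglecf* present and *Epx* at 0 in all libraries. Of the 4 mast cell markers, which summed from 24.1 to 74.6 in WT and from 67.6 to 124 in *mdx5cv*, 3 were tested and *Mcpt4* was higher, while *Cpa3* was not called. What part these cells had in the values of the chemokine genes was not tested.

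The resident cells of the muscle were checked in the same way. The 6 skeletal muscle fiber markers, among them *Acta1* and *Ckm*, summed from 930410.0 to 1154716 in WT and from 679193 to 1055405 in *mdx5cv*. None was called, while *Ckm* and *Tnnt3* were lower at an adjusted p under 0.05 in limma (log2 fold change -0.75 and -0.63) without overlap of the groups. The 4 endothelial markers, among them *Pecam1* and *Cdh5*, summed from 2304 to 2904 in WT and from 1499 to 1946 in *mdx5cv*, with 3 of 4 lower at an adjusted p under 0.05 in limma and none past the minimum fold. Among the 5 fibroblast markers, which summed from 3342 to 6250.1 in WT and from 8459 to 13418 in *mdx5cv*, *Col1a1* was higher. *Pdgfra* was higher at an adjusted p under 0.05 but under the minimum fold, and *Dcn*, *Ly6a* and *Pi16* were not called. The higher sum came from *Col1a1*, with a mean normalized count of 780 in WT against 6996 in *mdx5cv*. The median log2 fold change of the 5 markers was -0.009. The 3 satellite cell markers summed from 179.9 to 259 in WT and from 408 to 756 in *mdx5cv*, with *Myod1* higher, *Pax7* higher at an adjusted p under 0.05 but under the minimum fold, and *Myf5* not called. The 3 lymphatic endothelial markers (*Prox1*, *Flt4* and *Lyve1*) summed from 117 to 167 in WT and from 126 to 153 in *mdx5cv*, with none called and *Prox1* higher at an adjusted p under 0.05. Blood was represented by the 3 erythrocyte markers, which summed from 600.4 to 1086 in WT and from 279.7 to 609 in *mdx5cv*, with all 3 lower at an adjusted p under 0.05 and *Alas2* alone past the minimum fold, and by the 3 platelet markers, which summed from 5.48 to 14.9 in WT and from 13.5 to 17.6 in *mdx5cv*, with *Itga2b* tested and not called and *Gp9* near 0. Their part in the chemokine values was not tested. The share of all genes at an adjusted p under 0.05 with no minimum fold was not computed, so the counts at that threshold have no background.

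Downstream of the receptors, G proteins, kinases, small GTPases and integrins turn chemokine binding into movement. Of 63 such signaling genes, 59 were tested, 23 were higher and 1 was lower in *mdx5cv*, with a median log2 fold change of 0.61, where 10.3% of all genes tested were higher, 3.27% were lower and the median was 0.00. Of the 59, 10 had a WT mean under 10 and so passed the minimum through *mdx5cv* alone and had to differ, and all 10 were called higher. Of the other 49, 13 were higher, where 7.13% of all genes with such a WT mean were, and their median log2 fold change was 0.41. Among the 4 highest log2 fold changes at the pseudocount of 1 were those of *Vav1*, an exchange factor for Rac made chiefly by blood cells, *Itgb2*, the β2 chain of leukocyte integrins, and *Rgs1*, a regulator that ends G protein signaling. *Vav1* had a mean normalized count of 7.25 ± 8.23 in WT against 81.5 ± 32.4 in *mdx5cv* (SD, n = 4), which is a log2FC of 3.93 (SE 0.66, limma adjusted p = 0.000477). *Itgb2* was at 24.8 ± 13.3 in WT against 329.5 ± 139.9 in *mdx5cv* (SD, n = 4), which is a log2FC of 3.73 (SE 0.32, limma adjusted p = 3.93e-06). *Rgs1* was at 0.561 ± 0.648 in WT against 22.0 ± 15.2 in *mdx5cv* (SD, n = 4), which is a log2FC of 3.72 (SE 0.59, limma adjusted p = 0.000321). *Vav1* and *Rgs1* are among the 10 with a WT mean under 10. *Itga4*, the α4 integrin chain, was the 1 called lower, from 551 ± 29.5 to 282 ± 93.0 (SD, n = 4), with a log2FC of -1.02 (SE 0.18, limma adjusted p = 0.000744). Its fold is close to the minimum, and the call was lost in edgeR and in DESeq2 (log2 fold change -0.96 in both), under equal totals, with a pseudocount of 10, and when WT replicate 1 or 4 or *mdx5cv* replicate 3 was left out.

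Upstream, 15 cytokines and transcription factors that induce chemokines were examined, and 8 were tested. *Nfkb2*, a subunit of NF-κB, and *Irf7*, a factor of the interferon response, were higher (log2FC 1.45 and 1.93), and none was lower. *Il4* and *Il13* had no read, and the mean normalized count of *Tnf* was 1.10 ± 2.19 in WT against 6.59 ± 3.47 in *mdx5cv* (SD, n = 4). *Ifng*, which induces *Cxcl9* and *Cxcl10*, had 1 read in *mdx5cv* and none in WT, and *Il1a* had no WT read.

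Chemokine genes with other names than the rule takes were also read. *Pf4*, the platelet chemokine CXCL4, had normalized counts of 12.6, 24.1, 13.3 and 12.7 in the WT muscles and 44.5, 45.3, 47.7 and 131 in the *mdx5cv* muscles. It was higher in each *mdx5cv* library, with a log2FC of 1.92 (SE 0.34, limma adjusted p = 0.000737). *Ppbp*, the other platelet chemokine, had a mean of 4.14 ± 2.33 in WT against 4.15 ± 3.18 in *mdx5cv* (SD, n = 4) and was not tested. *Ccrl2*, an atypical receptor, had 105, 115, 87.3 and 90.04 in the WT muscles and 76.0, 107, 66.6 and 57.5 in the *mdx5cv* muscles, with a log2FC of -0.40 (SE 0.19, limma adjusted p = 0.108) and no call.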

How the data were processed

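Whole TA muscles of male mice were sequenced in 4 WT and 4 *mdx5cv* libraries, and samples were grouped by the genotype in their labels. Per the labels, RNA was isolated with Trizol and stranded total RNA libraries were made, and the submitters' processing notes name FastQC, Trim Galore 0.6.4, STAR 2.6.0c, SAMtools 1.9, featureCounts, MultiQC 1.6, DESeq2 1.26.0, R 3.6.2 and the mm10 genome. The annotation release and the strand setting of the counting are not given in the sources used here. The table deposited by the authors holds a signal for each gene, the count of its reads after division by a library size factor. Whole reads were recovered for 100% of the values (tolerance 1e-06), and size factors equaled median-of-ratios factors. Reads per library ranged from 13175524 to 14921057.

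The main test was limma 3.58.1 (R 4.3.3, lmFit and eBayes with trend, two-sided, no covariate) on log2(normalized count + 1), which understates the change of low genes, for the 13677 genes whose normalized count averaged 10 or more, with Benjamini-Hochberg adjustment. The threshold was an adjusted p under 0.05 and a log2 fold change of 1 or more in either direction. edgeR 4.0.16 (quasi-likelihood) and DESeq2 1.42.0 were run on recovered reads as alternatives, beside pseudocounts of 0.1 and 10, no filter, at least 10 in every library, TMM factors, equal totals, median centring, no variance trend, a replicate block, leaving out each library, and other fold minimums. edgeR with no filter was added after the data were seen. On simulated counts, with 200 genes shifted by 2 on the log2 scale between *mdx5cv* and WT, limma recovered 93.0% and edgeR 93.5% of them over 13503 genes, and DESeq2 95.5% over 13677.

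The members follow the symbol rule given at the start. They and the lists were chosen with earlier results of these data known, so no list is independent support. Every member was accounted for, with values for those above the minimum except 1 that, like 2 genes of the other lists, is not reported here. With those exceptions, of the signaling list the 4 largest rises and falls past the threshold and of each marker list the first 2 genes were named. Genes named beyond this, such as *Cd163*, *Csf3r*, *Col1a1*, *Nfkb2* and *Irf7*, were chosen after their values were seen. Ratios of genes with at most 3 reads in a group have exact Clopper-Pearson intervals, which cover counting error only. Where a group had no read, it was set at 3 reads. Such folds allow for counting error in that group but not in the other, so they are not lower limits. Coordinates are those of GENCODE M21 (GRCm38), in which all 62 genes were found. Other steps ran in Python 3.11.15 (matplotlib 3.10.9, scipy 1.17.1, pandas 2.3.3, numpy 2.4.6).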

Additional observations from a re-analysis of the deposited data

Results flagged for a closer look

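In 40 sets of 4 libraries (20 of the 21 tested genes in each group, log2 of normalized count + 1), the distance of an extreme library from the next one was divided by the whole range and set against Dixon's critical value. Chance gives about 2.0 such sets of 40, and 1 was found. *Ccl6* was high in *mdx5cv* replicate 4, at 8.33 against 7.28 to 7.42 in the other *mdx5cv* muscles, and the summed macrophage and monocyte markers were also highest in this muscle. Their part in this value was not tested.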

How the results depend on the processing

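Of 408 values of single genes under the alternatives, 397 kept their direction and their side of the threshold, 5 (all *Ccl21a*) lost the call and 6 changed sign, none of the latter past the threshold. The number of chemokine genes called higher was 14, and it was 26 with no filter, 24 in edgeR with no filter, 22 in DESeq2 and 4 when every library had to reach a normalized count of 10, settings that change which genes are tested. Leaving out each library gave 12 to 15, with 12 without *mdx5cv* replicate 4. With the replicate number as a block 14 were called, and correlations of same-numbered libraries (0.0309 to 0.146) do not show that the numbers pair the muscles. The count of lower genes, 0, was 1 (*Cxcl11*) with no filter, in DESeq2 and in edgeR with no filter. Of the signaling genes, 23 were higher, against 8 with at least 10 in every library and 36 with no minimum fold. The 1 lower signaling gene became 0 with a pseudocount of 10, equal totals, edgeR, DESeq2, edgeR with no filter or a minimum absolute log2 fold change of 2, and 7 with no minimum fold. Leaving out each library gave 0 to 2 of these. Equal totals turned *Cxcl12* to 0.24 and *Cxcl14* to 0.31. Over single libraries left out, *Cxcl12* ranged from -0.21 to 0.0010, *Cxcl14* from -0.13 to 0.05 (0.0475 without WT replicate 3, 0.0463 without *mdx5cv* replicate 1) and *Ccl25* from -0.0071 to 0.19. The cause of these changes was not tested. Genes with under 10 reads in a group are limited by depth.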

Other observations

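The summed macrophage and monocyte markers, which *Lyz2* dominates, also gave a scale for the receptors of these cells, as values with no test. Per 1000 normalized counts of the 8 markers, *Ccr2* had 50.9 ± 15.7 in WT and 62.1 ± 6.86 in *mdx5cv*, *Ccr1* had 2.32 ± 0.80 and 4.56 ± 1.08, and *Cx3cr1* had 5.42 ± 3.12 and 14.0 ± 2.38 (SD, n = 4). *Ccr1* and *Cx3cr1* lay higher in each *mdx5cv* library than in any WT library on this scale, whereas the *Ccr2* groups overlapped. Both rest on few WT reads. For *Ccr1* the groups were barely apart, with 3.29 as the highest WT value and 3.49 as the lowest *mdx5cv* value. *Cxcr4* had 46.0 ± 17.2 in WT and 27.7 ± 4.64 in *mdx5cv* on the same scale, with overlapping groups, although its normalized count was higher in *mdx5cv*.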
